A study of Homo sapiens with 9 samples.

Results

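The genes described here are 9 genes of the tight junction, namely the claudins CLDN1, CLDN3, CLDN4, CLDN7, CLDN10 and CLDN16, the MARVEL-domain proteins occludin (OCLN) and tricellulin (MARVELD2), and the scaffold ZO-1 (TJP1). They were chosen by name, with earlier results of these data known, among the 58735 genes of an RNA-seq count table. The table is of OVCAR4, an established human ovarian cancer cell line. All 9 genes were among the 16928 that passed the filter on low counts. The study asked what happens to these cells when MPZL3, a predicted cell adhesion molecule of the immunoglobulin superfamily, is knocked down. Its 9 libraries fall into 3 groups of 3. One group carried a lentiviral scrambled shRNA (scr control), another carried shMPZL3 #1 and the last carried shMPZL3 #2, which target different sites of MPZL3. All groups were lentivirally transduced and selected with puromycin, so the controls carried a vector and the drug as well, and all come from a single cell line.

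Tight junctions seal the space between neighbouring epithelial cells near their apical side. Claudins are small membrane-spanning proteins whose paired extracellular loops form the strands of the seal and set which ions pass. Occludin and tricellulin span the membrane in the same way and shape the strands, tricellulin at the corners where several cells meet. ZO-1 lies on the cytoplasmic side and ties the strands to actin. CLDN3 and CLDN4 are known for their high levels in epithelial ovarian cancers, and several junction genes are known targets of the repressors SNAI1 and ZEB1 when epithelial cells take on mesenchymal features.

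Total counts ranged from 15040102 to 27835841 per library. The targeted gene itself had normalized counts of 536 to 611 (scr control), 119 to 143 (shMPZL3 #1) and 271 to 380 (shMPZL3 #2), so the libraries followed their labels. Of 8 markers of serous ovarian carcinoma, 7 passed the filter, WT1 being the exception, and the 8 summed to 4396 to 5645 TPM (counts per gene length, scaled to the same total in each library). Keratins made up most of this sum, with KRT7 at 1530 TPM and KRT19 at 1237 TPM on average in scr control. PAX8 was at 99.8 TPM there, MUC16 at 28.05 TPM and WT1 at 0.188 TPM. With shMPZL3 #1, 2 of the 7 were called higher (PAX8 and KRT7) and 1 lower (MUC16), beside 16.8% and 15.3% of all genes. The summed level of 5 immune markers was at most 3.14 TPM and that of 4 endothelial markers was 3.31 to 4.34 TPM in the scr libraries, 3.01 to 3.57 TPM with shMPZL3 #1 and 5.78 to 6.96 TPM with shMPZL3 #2, where CDH5 was the 1 of the 4 called (log2 fold change 1.05, adjusted p = 0.00282). Their part in the results with shMPZL3 #2 was not tested. The 5 fibroblast markers summed to 9.01 to 11.3 TPM in the scr libraries, 16.4 to 26.2 TPM with shMPZL3 #1 and 18.1 to 22.8 TPM with shMPZL3 #2. Of these 5, COL1A1 and LUM passed the grouped test and COL1A2 did not. DCN was at 0 in every library. PDGFRA had 0 to 2 counts in the scr libraries, 0 to 1 with shMPZL3 #1 and 0 with shMPZL3 #2. The sum was thus almost wholly that of COL1A1, COL1A2 and LUM.

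CLDN1 and MARVELD2, the members that rose, are shown here with the sequence in front of their annotated starts. CLDN1 (ENSG00000163347) lies on the minus strand of chromosome 3 at chr3:190305701-190322475 of GRCh38, and CLDN16 (ENSG00000113946) begins beside it on the plus strand at chr3:190322541-190412143. Only 65 bases, chr3:190322476-190322540, separate the outermost starts that GENCODE release 29 gives these divergent genes. The CLDN16 transcript starting there is the noncoding CLDN16-203, while the coding CLDN16-201 and CLDN16-202 start at 190387872 and 190388120, and counts per gene cannot tell these transcripts apart. RefSeq places the starts of CLDN16 elsewhere again, at 190290361 and 190388163. The stretch between the genes is 80.0% G and C and holds 7 CpG, and the 120 bases before MARVELD2 (ENSG00000152939, plus strand, chr5:69415065-69444330) are 67.5% G and C with 11 CpG. The first line is written on the minus strand and the second, chr5:69414945-69415064, on the plus strand, both 5′ to 3′ from the RefSeq promoter windows on GRCh38.p14.
CLDN1 to CLDN16: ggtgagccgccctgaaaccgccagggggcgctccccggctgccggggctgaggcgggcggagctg
MARVELD2: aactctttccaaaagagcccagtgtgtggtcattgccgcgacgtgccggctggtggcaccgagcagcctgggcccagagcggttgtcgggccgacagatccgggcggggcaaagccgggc

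A set of 4 motifs was searched on both strands of the 16 RefSeq windows of 300 bases that cover the starts of the 9 genes. They were the E-box CAGGTG that SNAI and ZEB factors bind, the grainyhead-like core AACNNGTT, the AP-1 site TGANTCA and the TEAD site GGAATG. The E-box letters were in 6 of the 16 windows, against 20.6% of all 35116 RefSeq windows of that length. These windows belong to 5 of the 9 genes (CLDN3, CLDN7, CLDN16, OCLN and TJP1). Some genes have several windows, and no share per gene was computed. AP-1 letters were in 2 of the 16 windows (CLDN4 and CLDN16), against 7.71% of all windows. The grainyhead-like and TEAD letters, in 3.52% and 14.0% of all windows, were in none of the 16. No motif of these 4 lay in the windows of CLDN1, MARVELD2 or CLDN10. The windows with the most AP-1 and the most E-box matches are shown by 30 bases each, with the motif letters in capitals, from chr7:73830824-73830853 (plus strand, CLDN4, whose window holds 2 AP-1 matches) and chr17:7262479-7262508 (minus strand, CLDN7, whose window holds 5 E-box matches). No window held matches of more than 1 of the motifs. A match of letters is a description of the sequence and shows no binding.
CLDN4: agactggatagTGACTCAgggacccggggc
CLDN7: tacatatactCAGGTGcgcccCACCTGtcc

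Counts are given below as normalized counts, obtained by dividing the counts by each effective library size and multiplying by the mean of these sizes, and levels between genes are compared as TPM. Genes were called at an adjusted p under 0.05 (edgeR quasi-likelihood test, Benjamini-Hochberg adjustment over the 16928 genes). Log2 CPM values of single genes were also compared by an exact permutation test, two-sided. With 6 libraries against 3 it cannot go below 0.0119, and with 3 against 3 it cannot go below 0.1, so a single shRNA cannot pass 0.05. In bulk RNA-seq, a change in the share of cells that express a gene and a change in RNA per cell cannot be told apart.

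With both shRNAs grouped, CLDN1 and MARVELD2 rose and none of the 9 genes passed the test for a fall. The 2 of 9 that were higher stand beside 9.36% of all genes tested, and the 0 of 9 that were lower beside 6.40%. At an unadjusted p under 0.05 there were 2 lower genes, CLDN3 and CLDN16. DESeq2 called 1 of them, CLDN3, beside 8.30% of all genes lower in that fit. The share of all genes at an unadjusted p under 0.05 was not computed. Counts at that threshold, here and below, therefore have no background beside them. The median log2 fold change of the 9 genes was 0.09, with a range of -0.44 to 0.78, and that of all genes tested was 0.02. By log2 CPM, the 6 knockdown libraries all exceeded the 3 control libraries at 3 of the 9 genes (CLDN1, MARVELD2 and TJP1), against 11.8% of all genes. They all lay below them at 0 of the 9, against 11.0%.

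CLDN1 was the most abundant of the 9 genes and rose the most. Replicates 1, 2 and 3 had 9334, 11640 and 11971 normalized counts of CLDN1 (scr control), 16380, 20814 and 19366 (shMPZL3 #1) and 18063, 21556 and 17199 (shMPZL3 #2), and the same order is kept for the other genes. Every knockdown library was above every control library, and the ranges of the shRNAs overlapped. Grouped, its log2 fold change was 0.78 (standard error, SE, 0.12, adjusted p = 0.00147, exact permutation p = 0.0119), a 1.72-fold rise. It was 0.78 with shMPZL3 #1 (SE 0.12, adjusted p = 0.000174) and 0.79 with shMPZL3 #2 (SE 0.12, adjusted p = 0.000331), in comparisons that share the control libraries. Between the shRNAs the log2 difference was 0.01, with a 95% interval from -0.25 to 0.26. MPZL3 itself was 1.28 higher on the log2 scale with shMPZL3 #2 than with shMPZL3 #1, and its part in the CLDN1 result was not tested. CLDN1 was called in every alternative fit of the grouped comparison, with log2 fold changes from 0.67 to 0.84. The summed fibroblast markers given above were also higher in all 6 knockdown libraries, and their part in the CLDN1 result was not tested.

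CLDN16, the divergent neighbour of CLDN1, is best known as a paracellular magnesium channel of the kidney. It had normalized counts of 4155, 4480 and 4503 (scr control), 3565, 4329 and 3396 (shMPZL3 #1) and 3280, 3619 and 2535 (shMPZL3 #2). The libraries with shMPZL3 #2 lay below all controls, and those with shMPZL3 #1 overlapped them through replicate 2. The log2 fold change was -0.48 with shMPZL3 #2 (SE 0.13, adjusted p = 0.0159) and -0.22 with shMPZL3 #1 (adjusted p = 0.197), and the difference between the shRNAs did not pass the test (-0.26, 95% interval -0.52 to 0.00, adjusted p = 0.177). The shMPZL3 #2 call did not survive leaving out scr control replicate 2 (adjusted p = 0.0631) or shMPZL3 #2 replicate 3 (adjusted p = 0.127). The grouped value was -0.34 (SE 0.13, adjusted p = 0.0918), called when both shRNAs were averaged in the 3-group fit (adjusted p = 0.0224) or when shMPZL3 #1 replicate 2 was left out (adjusted p = 0.0314). The ratio of CLDN1 to CLDN16 normalized counts was 2.25 to 2.66 (scr control), 4.60 to 5.70 (shMPZL3 #1) and 5.51 to 6.78 (shMPZL3 #2), higher in every knockdown library than in every control library. CLDN1 alone separated the groups in the same way, and the ratio was not tested. P3H2, the next protein-coding gene past CLDN1, had log2 fold changes of 0.59 with shMPZL3 #1 (adjusted p = 0.000408) and -0.03 with shMPZL3 #2 (adjusted p = 0.867).

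**Figure D1:**
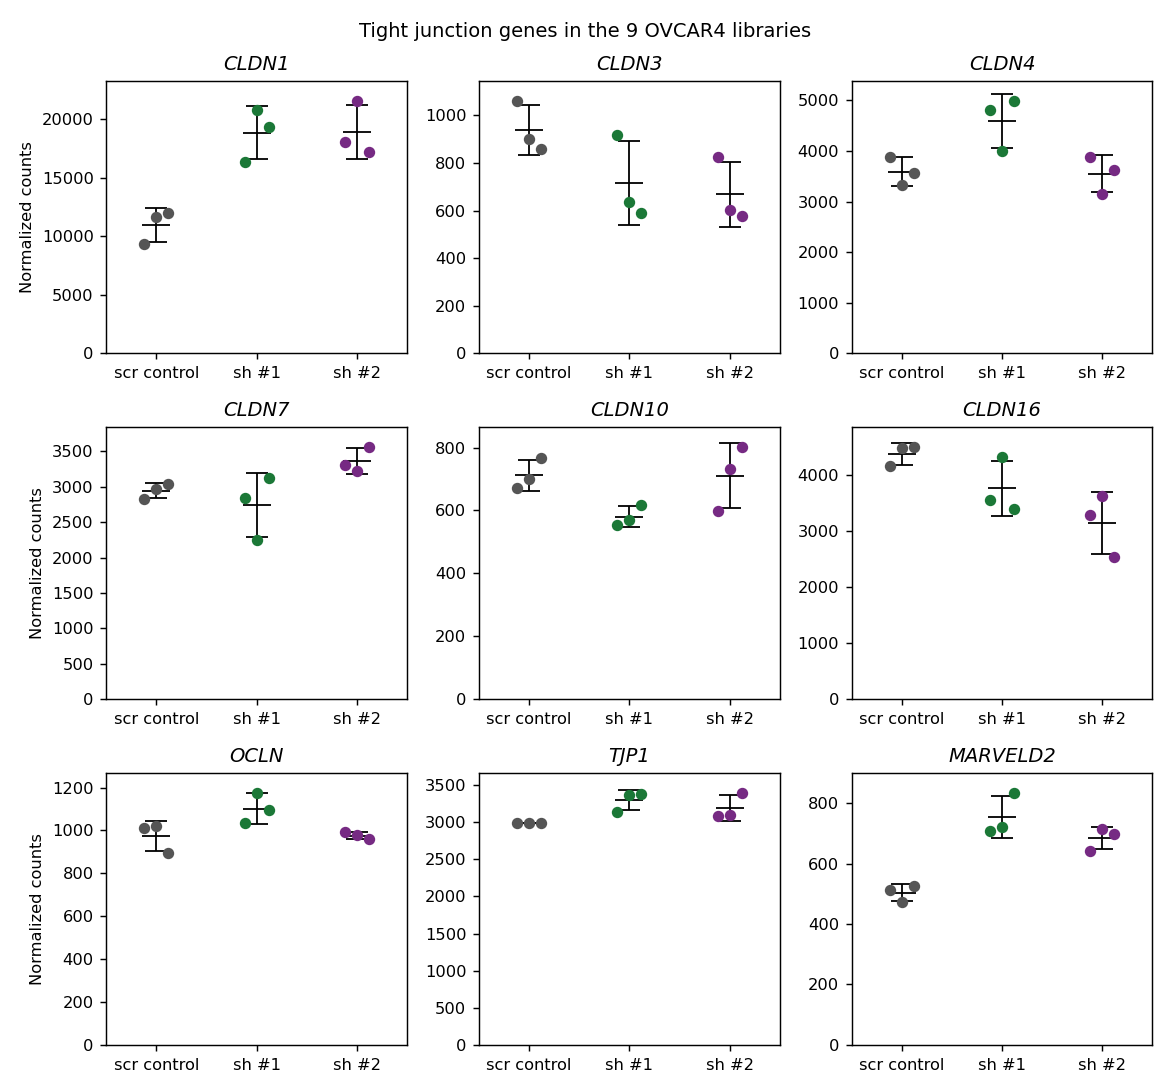
Normalized counts of the 9 tight junction genes in each library, with 1 panel a gene, points for the 3 libraries of each group in the order of their replicate numbers, and bars for the mean and SD; each vertical axis starts at 0 and has its own scale. CLDN1 and MARVELD2 lie above the scr control libraries in all 6 knockdown libraries, while CLDN4 is raised with shMPZL3 #1 and not with shMPZL3 #2.

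CLDN3 and CLDN4 are neighbours on chromosome 7, where CLDN3 (ENSG00000165215, minus strand) lies at chr7:73768997-73770270 and CLDN4 (ENSG00000189143, plus strand) at chr7:73799542-73832693. Both proteins are barrier-forming claudins and receptors for the enterotoxin of Clostridium perfringens. CLDN3 had normalized counts of 1060, 899 and 861 (scr control), 916, 635 and 591 (shMPZL3 #1) and 826, 603 and 577 (shMPZL3 #2). Replicate 1 was the highest library of each group, the shMPZL3 #2 libraries lay below all controls, and replicate 1 of shMPZL3 #1 lay within the control range. The grouped log2 fold change was -0.44 (SE 0.15, adjusted p = 0.0641, exact permutation p = 0.0833), short of the threshold. CLDN3 was called with DESeq2 (adjusted p = 0.0448), with no filter on low counts (adjusted p = 0.018) and with both shRNAs averaged in the 3-group fit (adjusted p = 0.0261). It was also called without shMPZL3 #1 replicate 1 (adjusted p = 0.028) or shMPZL3 #2 replicate 1 (adjusted p = 0.0425), and over all alternatives the adjusted p was between 0.012 and 0.278. With shMPZL3 #1 alone it was -0.39 (adjusted p = 0.0768) and with shMPZL3 #2 alone -0.49 (adjusted p = 0.0526). The fall with shMPZL3 #2 was called with DESeq2, with no filter, without any single shMPZL3 #1 library and without shMPZL3 #2 replicate 1. That with shMPZL3 #1 was called with no filter and without shMPZL3 #1 replicate 1. Calls of CLDN3 with a replicate block are given below with the processing.

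CLDN4 was the member at which the shRNAs differed. It had normalized counts of 3888, 3327 and 3558 (scr control), 4816, 3995 and 4985 (shMPZL3 #1) and 3891, 3154 and 3617 (shMPZL3 #2). The shMPZL3 #1 libraries were above all others, and the shMPZL3 #2 libraries spanned the control range. The log2 fold change was 0.36 with shMPZL3 #1 (SE 0.11, adjusted p = 0.0208) and -0.01 with shMPZL3 #2 (95% interval -0.25 to 0.22, adjusted p = 0.949). CLDN4 was lower with shMPZL3 #2 than with shMPZL3 #1 by a log2 difference of -0.37 (SE 0.11, adjusted p = 0.0312). The rise with shMPZL3 #1 was not called without scr control replicate 2 (adjusted p = 0.111), scr control replicate 3 (adjusted p = 0.0752) or shMPZL3 #1 replicate 3 (adjusted p = 0.0843). The difference between the shRNAs was no longer called when scr control replicate 3, shMPZL3 #1 replicate 1 or 3, or shMPZL3 #2 replicate 2 or 3 was left out, with adjusted p values from 0.0519 to 0.112. The ratio of CLDN4 to CLDN3 normalized counts was 3.67 to 4.13 (scr control), 5.26 to 8.43 (shMPZL3 #1) and 4.71 to 6.27 (shMPZL3 #2), above the control range in all 6 knockdown libraries. This ratio was not tested, nor compared with ratios of other gene pairs. Neither gene was called in the grouped comparison (adjusted p = 0.388 for CLDN4 and 0.0641 for CLDN3, edgeR).

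CLDN7, a claudin of many simple epithelia that also lies along the lateral membrane, is ENSG00000181885 at chr17:7259903-7263983 on the minus strand. It had normalized counts of 2826, 2974 and 3045 (scr control), 2845, 2253 and 3129 (shMPZL3 #1) and 3311, 3221 and 3563 (shMPZL3 #2). The shMPZL3 #2 libraries lay above all others, and the shMPZL3 #1 libraries fell on both sides of the controls. The grouped log2 fold change was 0.05 (95% interval -0.22 to 0.32, adjusted p = 0.82). The difference between the shRNAs was 0.30 (SE 0.11, adjusted p = 0.0838) and was called when shMPZL3 #1 replicate 3 was left out (adjusted p = 0.0334). It was also called with a replicate block, given below with the processing. CLDN7 shares 38 exonic bases with ELP5 on the opposite strand, a gene with 4404 counts over the 9 libraries against 27364 for CLDN7. It shares 269 more, 10.8% of its exonic bases, with AC003688.1 on the same strand, which had 0 counts.

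CLDN10, which forms cation or anion pores according to its isoform, is ENSG00000134873 at chr13:95433604-95579759 on the plus strand. Its values are uncertain, because the library preparation did not keep strand and 46.1% of its exonic bases overlap DZIP1 on the opposite strand, a gene with 5834 counts over the 9 libraries against 6015 for CLDN10. It had normalized counts of 670, 701 and 766 (scr control), 554, 571 and 617 (shMPZL3 #1) and 598, 731 and 802 (shMPZL3 #2). The shMPZL3 #1 libraries lay below all controls and the shMPZL3 #2 libraries spanned them. The log2 fold change was -0.29 with shMPZL3 #1 (95% interval -0.55 to -0.04, adjusted p = 0.0765) and -0.14 in the grouped comparison (95% interval -0.42 to 0.14, adjusted p = 0.488).

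MARVELD2 had the lowest level per length of the 9 genes in every group and rose with both shRNAs. Its libraries held 513, 473 and 527 normalized counts (scr control), 709, 720 and 834 (shMPZL3 #1) and 643, 715 and 697 (shMPZL3 #2). Every knockdown library was above every control library. The grouped log2 fold change was 0.51 (SE 0.11, adjusted p = 0.00746, exact permutation p = 0.0119), a 1.43-fold rise. It was 0.58 with shMPZL3 #1 (SE 0.11, adjusted p = 0.000902) and 0.44 with shMPZL3 #2 (SE 0.11, adjusted p = 0.0134), and the shRNAs differed by -0.14 (95% interval -0.37 to 0.09). The grouped call was lost without scr control replicate 2 (log2 fold change 0.47, adjusted p = 0.0565), and so was the call with shMPZL3 #2 without scr control replicate 2 (adjusted p = 0.0824) or shMPZL3 #2 replicate 3 (adjusted p = 0.0503).

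OCLN (ENSG00000197822, plus strand, chr5:69492292-69558104) is the next protein-coding gene after MARVELD2, 47961 bases away, and its change did not pass the test. OCLN had normalized counts of 1012, 1019 and 895 (scr control), 1033, 1175 and 1096 (shMPZL3 #1) and 991, 979 and 958 (shMPZL3 #2). The shMPZL3 #1 libraries were the highest, by a small margin over control replicate 2, and the shMPZL3 #2 libraries lay within the control range. The grouped log2 fold change was 0.09 (95% interval -0.12 to 0.30, adjusted p = 0.566). The ratio of MARVELD2 to OCLN normalized counts was 0.464 to 0.588 in scr control and 0.613 to 0.761 over the 6 knockdown libraries. MARVELD2 alone separated the groups in the same way, and the ratio was not tested. The pseudogene OCLNP1 had 34 counts over the 9 libraries against 9182 for OCLN.

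TJP1 (ENSG00000104067, minus strand, chr15:29699367-29968865) varied the least among the 9 genes. It had normalized counts of 2990, 2984 and 2990 (scr control), 3139, 3366 and 3385 (shMPZL3 #1) and 3080, 3095 and 3396 (shMPZL3 #2). In normalized counts, all knockdown libraries lay above the controls, whose SD was 3.47 (n = 3). That SD is smaller than counting noise at 2175 to 3164 counts per control library, so it is no measure of precision. In TPM the separation did not hold. Replicate 1 had 41.4 TPM with shMPZL3 #1 and 41.7 TPM with shMPZL3 #2, against 42.1 to 42.7 TPM in scr control. The grouped log2 fold change of 0.12 did not pass the edgeR test (95% interval -0.06 to 0.30, adjusted p = 0.364), and the exact permutation p was 0.0238.

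**Figure D2:**
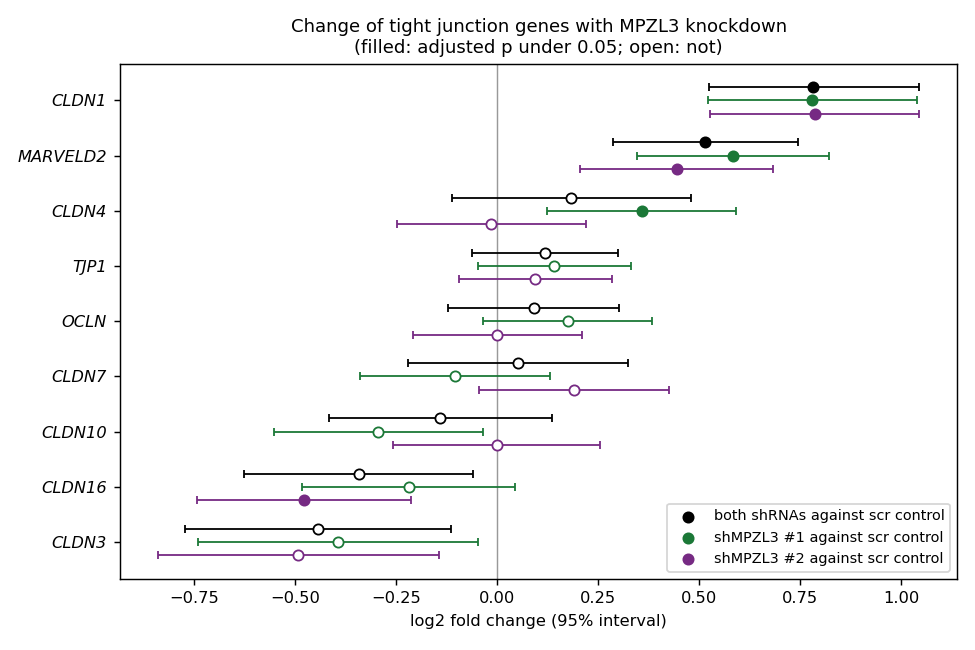
Log2 fold changes of the 9 genes with 95% intervals from the edgeR fits, for both shRNAs grouped (black), shMPZL3 #1 (green) and shMPZL3 #2 (purple) against the same scr control libraries, ordered by the grouped value. Filled points passed an adjusted p under 0.05, which CLDN1 and MARVELD2 did in all 3 comparisons, CLDN4 with shMPZL3 #1 alone and CLDN16 with shMPZL3 #2 alone; of these, the difference between the shRNAs itself was past the threshold at CLDN4 and not at CLDN16.

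With the shRNAs taken singly, 3 of the 9 genes were higher with shMPZL3 #1 (CLDN1, CLDN4 and MARVELD2), beside 16.8% of all genes tested. None of the 9 was lower in the edgeR test, beside 15.3%, with 2 lower at an unadjusted p under 0.05 and 0 with DESeq2. With shMPZL3 #2, 2 were higher (CLDN1 and MARVELD2), beside 9.36%, and 1 was lower (CLDN16), beside 5.80%. Between the shRNAs, 1 was lower with shMPZL3 #2 (CLDN4), beside 7.56%, and 0 were higher, beside 7.56%, with 2 higher at an unadjusted p under 0.05 (CLDN7 and CLDN10) and 0 with DESeq2.

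Per length, CLDN1 dominated the claudins of OVCAR4. TPM depends on the deposited gene length, a single value per gene (4702 bases for CLDN4), and counts per gene do not show which transcripts are in use. The order of levels and the claudin shares below depend on these lengths. Its level in scr control was 478.5 ± 64.4 TPM (SD, n = 3), higher than that of 98.7% of the genes tested. CLDN16 (195 ± 9.62 TPM) and CLDN7 (189 ± 7.75 TPM) followed and their library ranges overlapped, as did those of CLDN4 (122 ± 8.69 TPM) and CLDN3 (118 ± 12.8 TPM). TJP1 (42.3 ± 0.321 TPM), CLDN10 (33.6 ± 2.27 TPM), OCLN (23.0 ± 1.75 TPM) and MARVELD2 (15.0 ± 0.716 TPM) were lower, each separate from the next. With shMPZL3 #1 the order was CLDN1 (807 ± 129 TPM), which was separate from the rest, then CLDN7, CLDN16 and CLDN4 with CLDN16 overlapping both others, then CLDN3 and TJP1, and CLDN10, OCLN and MARVELD2 overlapped their neighbours at 22.0 to 26.9 TPM on average. With shMPZL3 #2 CLDN1 stood at 799 ± 109 TPM and CLDN7 (208.5 ± 10.1 TPM) was separate from CLDN16 (136 ± 25.0 TPM). There the ranges of CLDN16 and CLDN4 overlapped, and every other neighbour in the order was separate.

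The table holds 24 claudin genes, of which 14 passed the filter, and their summed level was 1181 ± 63.9 TPM in scr control, 1467 ± 131 TPM with shMPZL3 #1 and 1426 ± 117 TPM with shMPZL3 #2 (SD, n = 3 each). CLDN1 made up 36.5% to 42.6% of this sum without knockdown, 50.4% to 58.7% in libraries of shMPZL3 #1 and 53.8% to 59.4% in those of shMPZL3 #2. The share of CLDN16 went from 16.5% ± 0.126 to 11.2% ± 1.30 and 9.47% ± 1.09, and that of CLDN3 from 10.0% ± 1.66 to 6.03% ± 1.81 and 5.70% ± 1.21. Such shares are not independent of each other, since a larger share of 1 gene lowers the rest. The 18 claudin genes outside the 9 made up 3.51% to 4.13% in every library.

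**Figure D3:**
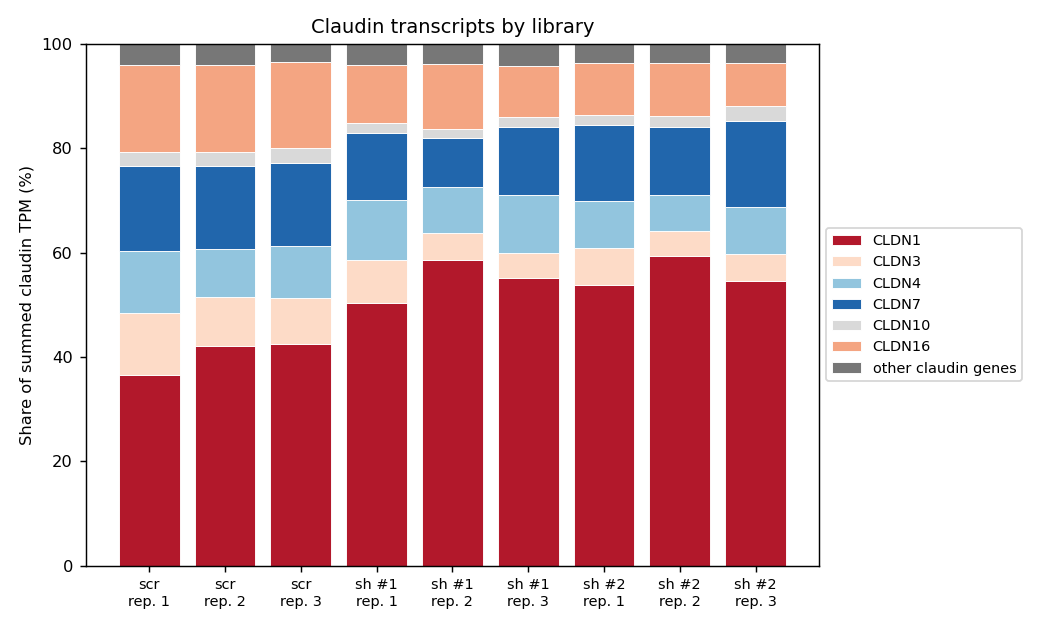
Share of the summed TPM of all 24 claudin genes taken by each claudin, as stacked bars, 1 for each library (sh #1 and sh #2 are shMPZL3 #1 and #2). The CLDN1 part is 36.5% to 42.6% in the 3 scr control libraries and 50.4% to 59.4% in the 6 knockdown libraries, and the CLDN16 part is smaller in all 6 than in the controls.

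The genes whose profile over the 9 libraries was nearest to that of CLDN1, among 13651 genes, were B2M, PTPRE and LYN. The root mean square difference between centred log2 CPM profiles was 0.0760, 0.0856 and 0.0864, against an SD of 0.423 of CLDN1 itself. For MARVELD2 they were CSRP2, NECAP2 and CPPED1, with differences of 0.0719, 0.0755 and 0.0774 against an SD of 0.275. Among the 9 genes, the profile nearest to CLDN1 was that of MARVELD2, at a difference of 0.210, while the one nearest to MARVELD2 was that of TJP1, at 0.203.

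Beyond the 9 genes, 100 genes of the tight junction and its regulation in 8 lists were followed in the same fits, and 80 of them were tested. In the grouped comparison 10 (12.5%) were higher and 2 (2.5%) were lower, beside the 9.36% and 6.40% of all genes, and the median log2 fold change was 0.09. These counts depended on the control libraries, since 1, 4 and 3 genes were higher without scr control replicate 1, 2 or 3, and 0 were lower. In the same fits 2.58%, 3.92% and 4.625% of all genes were higher and 0.978%, 1.58% and 2.40% were lower. SPINT1 was called with each library left out, CLDN23 and ELF3 were lost without scr control replicate 1 and ILDR2 without scr control replicate 1 or 3. The other 8 calls were lost without scr control replicate 1, 2 or 3 alike. Among those 8, the CLDN14, KLF4 and PARD6B calls were also lost without any single shMPZL3 #1 library, that of MYH10 without shMPZL3 #1 replicate 1 or 2, and that of LSR without shMPZL3 #1 replicate 1.

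Of 8 other claudins tested, 2 were higher and 0 lower in the grouped comparison, beside 9.36% and 6.40% of all genes. The same shares of all genes stand beside the grouped counts of each list below. There were 0 lower also at an unadjusted p under 0.05 and with DESeq2, and the median log2 fold change was 0.25. CLDN23 rose from a normalized count of 73.6 ± 19.9 to 178 ± 30.3 (shMPZL3 #1) and 138 ± 5.10 (shMPZL3 #2), as mean and SD of 3 libraries (grouped log2 fold change 1.10, SE 0.22, adjusted p = 0.00646). CLDN14 had 7.06 ± 2.87 (scr control), 24.5 ± 5.44 (shMPZL3 #1) and 16.1 ± 3.07 (shMPZL3 #2), and its grouped log2 fold change was 1.46 (SE 0.44, adjusted p = 0.0406). With shMPZL3 #2 alone it did not pass the test (1.13, adjusted p = 0.145), and neither did the difference between the shRNAs (-0.61, adjusted p = 0.391). The CLDN14 call rests on 4 to 11 counts in each control library, and neither gene came near CLDN1 in level, with at most 12.8 TPM on average in any group.

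Of 11 other membrane proteins of the junction tested, the 3 that were higher were LSR, ILDR1 and ILDR2, and these are the angulins, which recruit tricellulin to tricellular contacts. LSR and ILDR1 fall outside the rule for named genes and were picked once their values were known. LSR had normalized counts of 5000 ± 389 (scr control), 8397 ± 1567 (shMPZL3 #1) and 6382 ± 876 (shMPZL3 #2), with a call when grouped (log2 fold change 0.56, SE 0.16, adjusted p = 0.0311). It passed the test with shMPZL3 #1 (0.75, adjusted p = 0.000432) and not with shMPZL3 #2 (0.35, adjusted p = 0.0804), and the difference between them was called (-0.40, adjusted p = 0.04998). ILDR1 rose from 89.3 ± 7.65 to 138 ± 19.5 and 169.5 ± 35.1 (0.78, SE 0.20, adjusted p = 0.0196). ILDR2 had 2 counts over the 3 control libraries and 73 over the 6 knockdown libraries, and no fold is given for it. The median of these 11 genes was 0.23, also with ILDR2 set to its bound at a floor of 3 counts per library, and none was lower in the edgeR test, by an unadjusted p under 0.05 or by DESeq2.

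None of the 16 scaffold and plaque genes besides TJP1 was called in the grouped edgeR test or with DESeq2, and at an unadjusted p under 0.05 there was 1 higher and 1 lower. Their median log2 fold change was 0.10. The lowest adjusted p between the shRNAs there was at CGNL1 (paracingulin), which falls outside the rule for named genes and was named after its values were seen. CGNL1 had normalized counts of 234 ± 46.8 (scr control), 570 ± 62.1 (shMPZL3 #1) and 218 ± 38.6 (shMPZL3 #2), a log2 difference between the shRNAs of -1.39 (SE 0.17, adjusted p = 4.94e-05). Of 13 polarity genes, 1 was lower (PARD6B, from 459 ± 46.1 to 299 ± 5.51 and 377 ± 23.0 normalized counts, grouped log2 fold change -0.44, adjusted p = 0.0398, and with shMPZL3 #2 alone -0.28, adjusted p = 0.142) and 0 were higher, with 1 higher at an unadjusted p under 0.05 and 0 with DESeq2. The median there was 0.02.

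Among 7 genes for claudin stability and assembly, SPINT1, a membrane-bound inhibitor of the protease matriptase, was higher and none was lower by edgeR, an unadjusted p under 0.05 or DESeq2. SPINT1 rose from 2729 ± 22.6 normalized counts to 5300 ± 630.5 with shMPZL3 #1 and 4618 ± 389 with shMPZL3 #2 (grouped log2 fold change 0.86, SE 0.11, adjusted p = 0.00061). The median of the list was -0.04. Among 10 contractility genes, with a median of -0.03, the nonmuscle myosin heavy chain MYH9 was higher (0.50, adjusted p = 0.0173) and its paralog MYH10 lower (-0.41, adjusted p = 0.0389). With shMPZL3 #2 alone MYH10 did not pass the test (-0.24, adjusted p = 0.11), and the shRNAs differed at it (0.35, adjusted p = 0.0255).

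Of the repressors of junction genes, 2 of 8 passed the filter and none was called in the grouped comparison by edgeR, an unadjusted p under 0.05 or DESeq2. SNAI1, named after its values were seen, had normalized counts of 170 ± 10.8 (scr control), 309 ± 50.7 (shMPZL3 #1) and 166 ± 32.4 (shMPZL3 #2). It was higher with shMPZL3 #1 (log2 fold change 0.86, SE 0.17, adjusted p = 0.00135), was at -0.04 with shMPZL3 #2 (95% interval -0.42 to 0.33) and differed between the shRNAs (-0.90, adjusted p = 0.00218). Of 13 activators tested, 3 were higher and 0 lower, with 1 lower at an unadjusted p under 0.05 and 0 with DESeq2, and a median of 0.12. KLF4 had 111 ± 34.3 (scr control), 245 ± 47.7 (shMPZL3 #1) and 152 ± 3.43 (shMPZL3 #2) normalized counts, with a grouped log2 fold change of 0.83 (adjusted p = 0.048). It passed the test with shMPZL3 #1 (1.14, adjusted p = 0.000672) and not with shMPZL3 #2 (0.45, adjusted p = 0.177), and the shRNAs differed (-0.69, adjusted p = 0.0295). The others were ELF3 (0.67, adjusted p = 0.00468) and GRHL1 (0.52, adjusted p = 0.0175), which were picked once their values were known and passed the test with each shRNA.

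**Figure D4:**
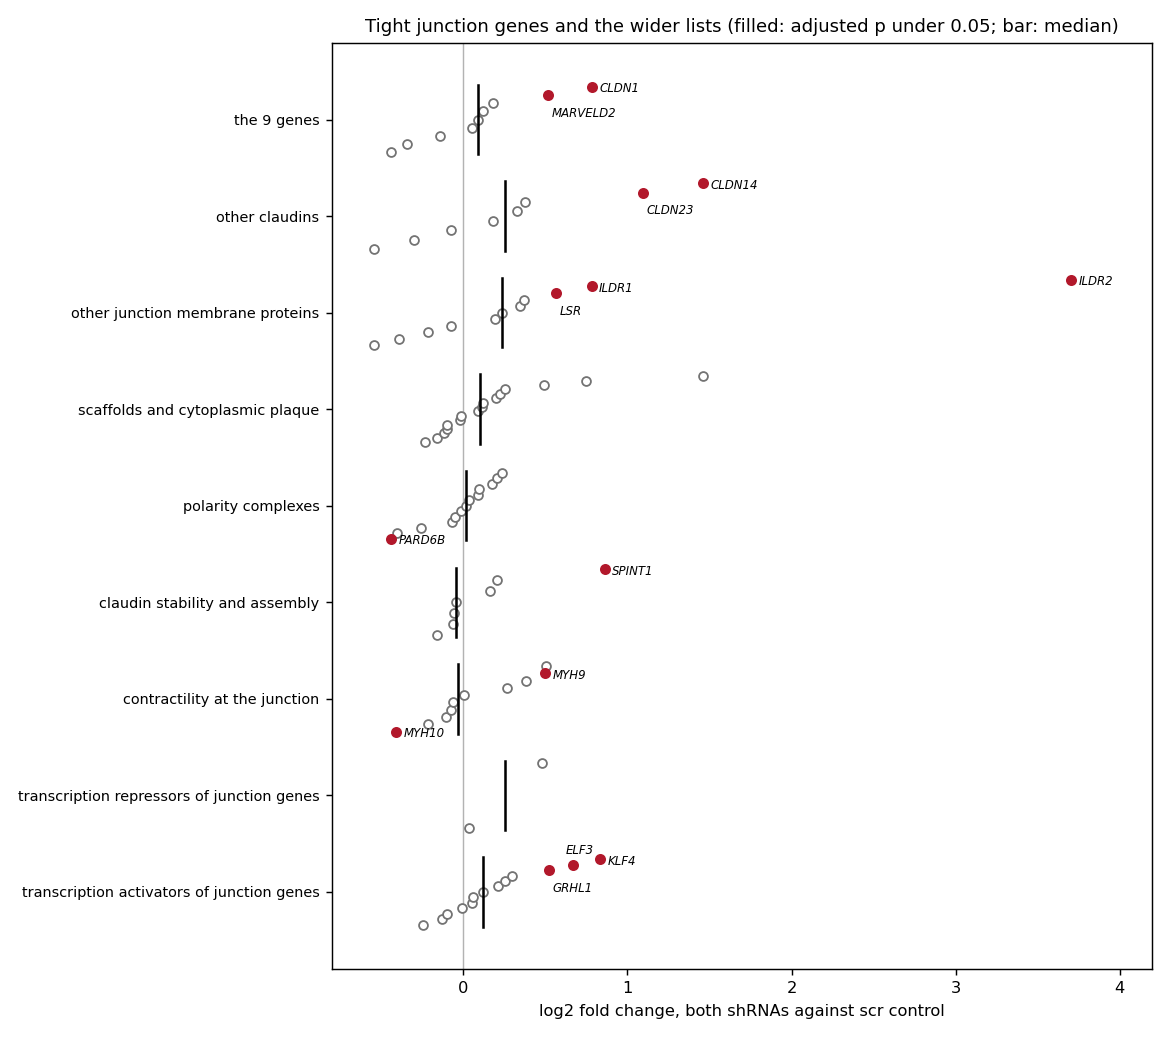
Grouped log2 fold changes (both shRNAs against scr control) of the 9 genes and of the tested genes of 8 wider lists, 1 point a gene, filled and named where the adjusted p was under 0.05, with a vertical bar for the median of each list. Medians lie between -0.04 and 0.26, CLDN1 and MARVELD2 are the filled points among the 9 genes, and the fitted value of ILDR2 at 3.70 rests on 2 counts over the control libraries and is no measure of fold.

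The lists were also read by shRNA. With shMPZL3 #1, 24 of the 80 genes (30.0%) were higher and 3 (3.75%) lower, beside 16.8% and 15.3% of all genes, and their median was 0.15. With shMPZL3 #2, 8 (10.0%) were higher and 5 (6.25%) lower, beside 9.36% and 5.80%, and their median was -0.0036. Between the shRNAs, 4 were higher and 11 lower with shMPZL3 #2, beside 7.56% each of all genes. Both comparisons with scr control share the same control libraries. The lists were chosen with earlier results of these data known, so their shares are a description and no test. Among genes with at least 10 counts in every library, 20.8% of all were higher with shMPZL3 #1 and 16.2% lower.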

How the data were processed

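The deposited values are raw counts of reads per gene in 9 OVCAR4 libraries, with no normalization by the authors and no pooling, and a column of gene lengths. The authors transduced the cells with each shRNA in 3 biological replicates, selected them with puromycin and prepared poly-A selected libraries that keep no strand. Per the submitters' processing notes, reads were aligned to hg38 with HISAT2 2.0.5 and counted with featureCounts 1.5.0-p3. The authors used DESeq2 with both shRNAs grouped. All 58735 genes matched GENCODE release 29.

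Counts were tested with edgeR 4.0.16 in R 4.3.3 (filterByExpr, 16928 genes, TMM factors from 0.983 to 1.03, two-sided quasi-likelihood tests, Benjamini-Hochberg adjustment, 95% intervals from the same fits). The grouped comparison set 6 knockdown against 3 control libraries, and a fit of 3 groups gave each shRNA against control and the shRNAs against each other. TPM used the deposited gene lengths, and log2 CPM a prior count of 2. Alternatives were DESeq2 1.42.0, RLE and upper-quartile normalization, no filter, at least 10 counts in every library, a replicate block, the mean of both shRNAs in the 3-group fit, and leaving out each library. The code was tested on simulated data. The chi-square per gene between replicates was 3.16 to 23.7, so none were duplicates.

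The 9 genes, the lists and the markers, which were written from general knowledge, were chosen with earlier results of these data known. A gene of the lists is not reported here. The rule for named genes was all 9 members, MPZL3, in each wider list called genes whose log2 fold change was at least 1 in size and the largest called rise and fall, the 3 nearest profiles of each called member, and neighbouring or overlapping genes. Sequences are from RefSeq windows on GRCh38.p14, which covered all 9 genes. Coordinates of genes are those of GENCODE release 29 on GRCh38.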

Additional observations from a re-analysis of the deposited data

Results flagged for a closer look

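CLDN4 is listed because its effect differed between the shRNAs, by a test of that difference. It was 0.36 higher than scr control on the log2 scale with shMPZL3 #1 and -0.01 with shMPZL3 #2, and the difference of shMPZL3 #2 from shMPZL3 #1 was -0.37 (SE 0.11, adjusted p = 0.0312 by edgeR). All 3 libraries with shMPZL3 #2 lay below all 3 with shMPZL3 #1. Leaving out each library gave differences from -0.46 to -0.29, and its adjusted p over all alternatives was between 0.00269 and 0.112. MPZL3 itself was lower with shMPZL3 #1 than with shMPZL3 #2, and its part in this difference was not tested.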

How the results depend on the processing

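Of the single-gene values recomputed for the 9 genes under the alternatives, 494 kept their direction and their side of the threshold, 21 passed it, 13 no longer did and 21 changed sign. Leaving out each library gave 1 to 2 members higher and 0 to 1 lower in the grouped comparison, 0 to 1 lower with shMPZL3 #1, 1 to 2 higher and 0 to 2 lower with shMPZL3 #2, and 0 to 1 higher and 0 to 1 lower between the shRNAs. With shMPZL3 #1, CLDN1 and MARVELD2 stayed higher in each of these fits and CLDN4 did not. Of all genes, 2.58% to 9.88% were then higher and 0.978% to 8.25% lower in the grouped comparison. With shMPZL3 #1 these shares were 11.3% to 17.0% higher and 9.685% to 16.1% lower. With shMPZL3 #2 they were 5.17% to 9.89% and 2.02% to 7.89%, and between the shRNAs 3.81% to 8.67% and 4.58% to 8.165%. For the wider lists, leaving out each library gave 1 to 11 higher and 0 to 3 lower in the grouped comparison. In the grouped comparison 1 member (CLDN3) was lower with DESeq2, with no filter and with the replicate block, beside 8.30%, 3.51% and 5.85% of all genes, and 2 (CLDN3 and CLDN16) with the mean of both shRNAs, beside 13.0%. With shMPZL3 #1, 1 was lower with no filter, beside 7.19%. With shMPZL3 #2, 2 (CLDN3 and CLDN16) were lower with DESeq2 and with no filter, beside 7.26% and 3.18%. The replicate block gave 2 lower members with shMPZL3 #1 (CLDN3 and CLDN10), 2 lower with shMPZL3 #2 and 1 higher between the shRNAs (CLDN7), beside 18.3%, 9.43% and 11.9% of all genes, and CLDN3 was called in the grouped comparison with an adjusted p of 0.012. The deviations of same-numbered libraries correlated over 0.1 in 3 of 9 pairs, and the numbers were not taken to pair the samples. Even so, 5 of the 9 libraries were closest to both libraries of their own number. Same-numbered pairs of the 2 shRNAs had correlations of 0.137, 0.218 and 0.0966, and those with scr control had -0.00143 to 0.111. The correlations were -0.00143 to 0.218 in same-numbered pairs and -0.147 to 0.0671 in pairs with other numbers, so a weak replicate effect may remain. The cause of these moves was not tested.

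The sign changes were at values near 0. Against scr control, CLDN7 with shMPZL3 #1 was -0.209 to 0.0191 with each library left out. With shMPZL3 #2, CLDN4 was 0.0058 with at least 10 counts in every library and -0.0997 to 0.0614 with each library left out. CLDN10 was 0.0042 with upper-quartile normalization, 0.0012 with no filter, 0.018 with at least 10 counts and -0.0861 to 0.0925 with each library left out, and OCLN was -0.0039 with DESeq2 and with RLE and -0.0665 to 0.0339. Between the shRNAs, CLDN1 was -0.0215 with upper-quartile normalization, -0.0129 with at least 10 counts and -0.0947 to 0.0839 with each library left out, and CLDN3 -0.291 to 0.115. Depth limited CLDN14, with 4 to 11 counts in each control library, and ILDR2, with 2 over all 3.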

Other observations

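The 10 claudin genes that did not pass the filter had at most 17 counts in any library, and CLDN17, CLDN22 and CLDN25 had none in the 9 libraries. The counts of CLDN24 were 5 to 9 (scr control), 0 to 1 (shMPZL3 #1) and 2 to 9 (shMPZL3 #2). MARVELD3, the third protein with a MARVEL domain at the junction, had normalized counts of 203 ± 18.3 (scr control), 266 ± 29.9 (shMPZL3 #1) and 258 ± 20.6 (shMPZL3 #2), with the SD of 3 libraries. Its grouped log2 fold change of 0.37 did not pass the threshold (95% interval 0.08 to 0.66, adjusted p = 0.0791, edgeR quasi-likelihood test), although all 6 knockdown libraries lay above all 3 controls.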
